A study of Mus musculus with 58 samples.

Results

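The genes of mouse chromosome 18 were examined for how much RNA each parental copy supplied in cell lines that carry a deletion in Xist and in lines that do not. The members were genes listed on chromosome 18 with at least 10 fragments in every library. Of the 559 chromosome 18 genes in the count tables, 263 fell under this minimum, 4 that passed it were left out by name, and 292 were kept. The tables list 22556 genes in all, of which 10740 reached the minimum in every library.

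The study asked how Xist RNA silences the X chromosome when the SPEN and Polycomb pathways are impaired, and measured chromatin-associated RNA (ChrRNA-seq), the nascent RNA that is still attached to chromatin. All 58 libraries came from 6 lines of female hybrid mouse embryonic stem cells (mESCs), 129S x Cast, in which a TetOn promoter replaces the promoter of the 129S copy of Xist, so that doxycycline (dox, 1 ug/mL) turns it on. mESCs were taken on day 0 without dox and on day 1 with it, and cells differentiating to neuronal precursors (NPC) on days 3 and 6 of induction. The parental line (WT, 4 NPC libraries) has only this promoter. The other comparison lines were SPOC (mutation of the Spen SPOC domain, 10 libraries of clones C11, D9 and H1), PCGF35 (degron FKBP12-PCGF3/5, 16 libraries) and PCGF35_SPOC (both changes, 16 libraries). Each degron line was sampled with and without dTAG-13 at 100 uM, which was added 12 h ahead of dox. Day 0 cells received no dox. For NPC differentiation the study kept dTAG-13 in the medium to the end. The lines of interest were DelPID, which lacks the Xist B/C repeat (PID region), with 4 NPC libraries, and DelPID_SPOC, named for this deletion and the SPOC mutation together, with 4 libraries each of clones A8 and G3 on days 0, 1, 3 and 6. The engineering label of DelPID_SPOC lists the deletion alone. The study describes a DelPID_SPOC clone that it calls G as tetraploid. Its list of lines names only A8 and G3 for DelPID_SPOC, so clone G is taken to be G3. DelPID is a single line, and the study made DelPID_SPOC by mutating Spen in it, so all 12 deletion-line libraries descend from 1 line, and the deletion and that line cannot be told apart. Clones A8 and G3 are therefore not independent of DelPID. By the study's description, the NPC replicates of WT and DelPID came from duplicate differentiation experiments, WT beside SPOC clones D9 and H1 and DelPID beside a DelPID_SPOC clone each time. They are repeats of 1 line each. The main tests took their spread from the replicates of all lines, which are different clones in SPOC, PCGF35_SPOC and DelPID_SPOC. So p-values mix the spread between experiments with that between clones. Neither they nor the standard errors (SE) measure a spread between independent deletion lines.

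Chromosome 18 is an autosome and is not where Xist acts. A hybrid diploid cell has a 129S copy (Dom, for M. m. domesticus) and a Cast copy of each autosome, and fragments that cover strain-specific bases are assigned to the copy they were transcribed from. The Dom share of a gene, Dom fragments over Dom plus Cast fragments, reads the balance of the copies, while the total count reads their summed output. The output of a gene often follows the number of its transcribed copies. DNA copy number was not measured here.

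Library depth ranged from 2292261 to 30005305 fragments in genes, and 44.2% to 49.6% of the fragments were assigned to an allele. The replicate 1 libraries of DelPID were the shallowest, with 6372321 fragments on day 3 and 2292261 on day 6, and 4.69% of the fragments of the latter came from Filip1l, a gene on another chromosome. All 4 pluripotency markers (Pou5f1, Nanog, Zfp42, Klf2) were detected in every library, as was Nes among neural precursor markers, while Sox1 is listed at 0 throughout. The summed pluripotency markers spanned 275 to 783 CPM (fragments scaled to library size) in the deletion lines and 129 to 1373 in the others, and the 6 feeder fibroblast markers 4.53 to 33.7 and 0.509 to 132 CPM. CPM throughout are scaled by the trimmed mean of M values (TMM).

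In every library of the deletion lines, chromosome 18 gave more Dom than Cast RNA, and in every other library the copies were close to equal. The Dom share summed over members was 0.719 and 0.725 in the DelPID libraries of day 3, and 0.770 and 0.759 in those of day 6. In clone A8 it was 0.684, 0.687, 0.695 and 0.704 on days 0, 1, 3 and 6. In clone G3 it was 0.687, 0.686, 0.684 and 0.686 on the same days. In the 46 other libraries the share lay between 0.523 and 0.537. Counting error was small beside these gaps, since the widest 95% Wilson interval among the DelPID libraries, that of day 6 replicate 1, ran from 0.766 to 0.775. Intervals cover counting error only. Expressed as a ratio, DelPID had 2.55, 2.63, 3.36 and 3.16 Dom fragments for each Cast fragment, clone A8 between 2.17 and 2.38, clone G3 between 2.17 and 2.19, and WT between 1.12 and 1.16. Because the members were chosen with earlier results of these data known, the summed values are given as a description without a test.

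**Figure D1:**
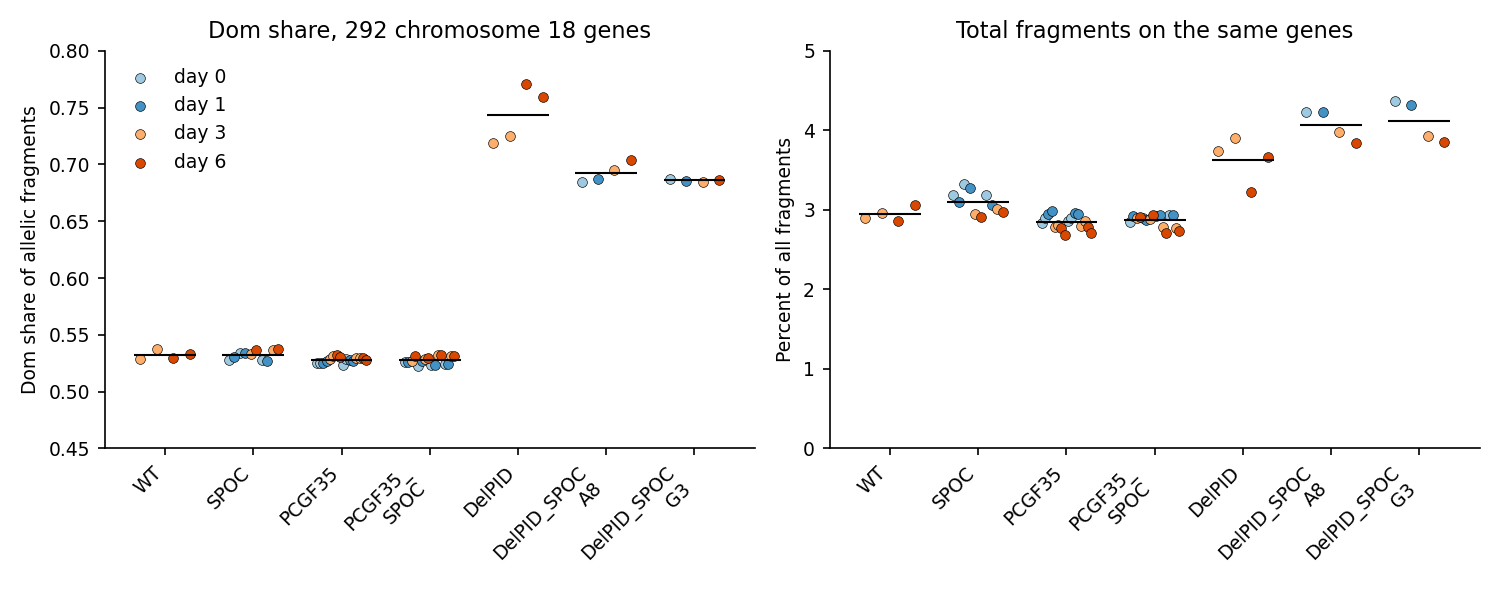
Dom share summed over the 292 chromosome 18 members (left) and percent of all gene fragments that fell on them (right), per library, by line and clone; each point is a library and lines mark means. The 12 deletion-line libraries lie at a Dom share of 0.684 to 0.770 and the 46 others at 0.523 to 0.537.

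The share of all RNA that came from chromosome 18 was also higher in the deletion lines. Members took 3.74% and 3.90% of the fragments of the DelPID libraries on day 3, and 3.22% and 3.66% on day 6, against 2.86% to 3.06% in WT. They took 3.84% to 4.24% in clone A8 and 3.85% to 4.37% in clone G3, against 2.91% to 3.32% in SPOC. The 46 other libraries together spanned 2.69% to 3.32%, and the lowest deletion-line library, DelPID day 6 replicate 1 with its large Filip1l fraction, lay within that span. Matched by day, the summed CPM was 1.29-fold that of WT in DelPID, 1.34-fold that of SPOC in DelPID_SPOC, and 1.44-fold that of all other lines in the deletion lines together.

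Split by allele, the extra RNA was Dom. The Dom fragments of members amounted to 13922 to 15035 CPM in DelPID against 7416 to 8550 in WT, and to 13031 to 16113 CPM in DelPID_SPOC against 6885 to 8799 in SPOC. No deletion-line library overlapped another library in this quantity. Day-matched ratios were 1.80 (DelPID to WT), 1.78 (DelPID_SPOC to SPOC) and 1.94 (deletion lines to all others). Cast RNA moved less and not alike in the lines. It stood at 5885 and 5401 CPM on day 3 and 4257 and 4410 CPM on day 6 in DelPID, below the 6585 to 7477 of WT in all 4 libraries, with ratios of 0.808 on day 3 and 0.617 on day 6. In DelPID_SPOC it was 5952 to 7344 CPM, overlapping the 6177 to 7677 of SPOC, with a ratio of 0.914. Scaled to allelic fragments on the other autosomes instead of TMM, the ratios of deletion lines to all others were 1.91 for Dom and 0.909 for Cast.

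**Figure D2:**
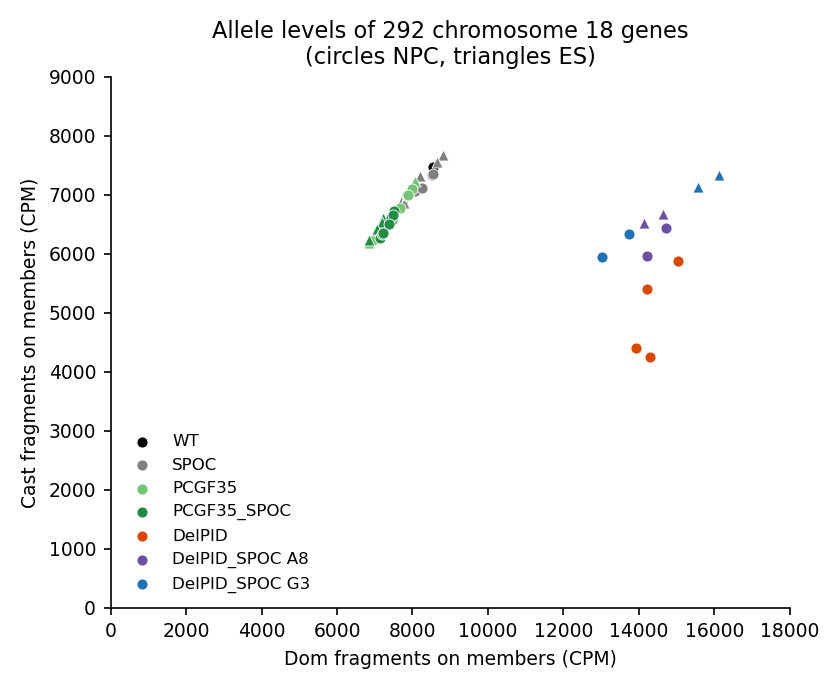
Dom (horizontal) against Cast (vertical) fragments of the chromosome 18 members in CPM, 1 point per library, by line and clone. The deletion lines lie to the right at 13031 to 16113 Dom CPM, and the 2 DelPID libraries of day 6 lie lowest on the Cast axis at 4257 and 4410 CPM.

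Of the other 18 autosomes, only chromosome 11 also had deletion-line libraries that did not overlap the others in Dom share, there in the opposite direction with a day-matched difference of -0.286. On the remaining 17 the difference reached at most 0.059, on chromosome 8, and its median size over the 18 autosomes was 0.00399. Averages hide single lines or libraries. Deletion-line libraries spanned 0.350 to 0.509 on chromosome 8 (0.344 to 0.358 in the others) and 0.151 to 0.508 on chromosome 16 (0.261 to 0.522). Summed over all autosomes but 18, the Dom share was lowest, at 0.451, in DelPID day 6 replicate 1, the library with the large Filip1l fraction. How far single genes set these ranges was not tested. The day-matched difference in total RNA was 0.53 on the log2 scale for chromosome 18 and lay between -0.20 and 0.14 on the others.

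The change in Dom share was carried by nearly every member rather than by a few abundant genes. Per gene, Dom and Cast counts were tested over all libraries with edgeR's quasi-likelihood test, with Benjamini-Hochberg adjustment over the 12022 genes that had enough allelic fragments, 288 of the members among them. The effect is a log2 odds difference, the log2 of the ratio between the Dom to Cast ratios of the groups. In DelPID against WT, 271 of 288 members had a higher Dom share at an adjusted p under 0.05 and 0 a lower one, against 8.09% and 6.65% of all genes tested. The median member differed by 1.41, a 2.66-fold higher Dom to Cast ratio, and genes off chromosome 18 by 0.05. Of the members, 279 had an unadjusted p under 0.05 in this test, a count given without the rate among all genes. In DelPID_SPOC against SPOC, 278 members were higher and 0 lower (10.3% of all genes in each direction), with a median of 0.96. In the deletion lines against all others, all 288 tested members were higher, against 15.7% of all genes higher and 14% lower, with a median of 1.09 and a range of 0.48 to 2.68. With limma's test on the log2 odds in place of edgeR, 272, 275 and 285 members were higher in the 3 comparisons and 0 lower. The limma counts are given without the rate among all genes.

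Of the 259 members with 10 allelic fragments in every library, 183 had a higher Dom share in all 12 deletion-line libraries than in any of the 46 others, and 0 a lower one (2.29% and 4.05% of all genes with that many fragments). Pooled over the libraries of a line, clone or day, the middle 90% of the Dom shares of these members ran from 0.424 to 0.746 in WT, from 0.604 to 0.870 in DelPID on day 3, from 0.655 to 0.908 on day 6, from 0.572 to 0.829 in clone A8 and from 0.580 to 0.828 in clone G3. The centre of the distribution moved, from a median of 0.532 in WT to 0.731 and 0.770 in DelPID on days 3 and 6 and to 0.699 and 0.687 in the clones. Of the members with a low Dom share in the other lines, Pcdha4-g, listed within the protocadherin alpha cluster whose transcripts overlap and so uncertain as a single gene, had the lowest pooled Dom share, 0.144 in WT and 0.228 and 0.291 in DelPID on days 3 and 6. Other low members passed 0.5 in DelPID, such as the glucocorticoid receptor gene Nr3c1, with a pooled share of 0.350 in the 46 other libraries and 0.589 in DelPID, and Ino80c, a subunit of the INO80 remodelling complex, with 0.370 and 0.586. These 2 were named after their values were seen.

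**Figure D3:**
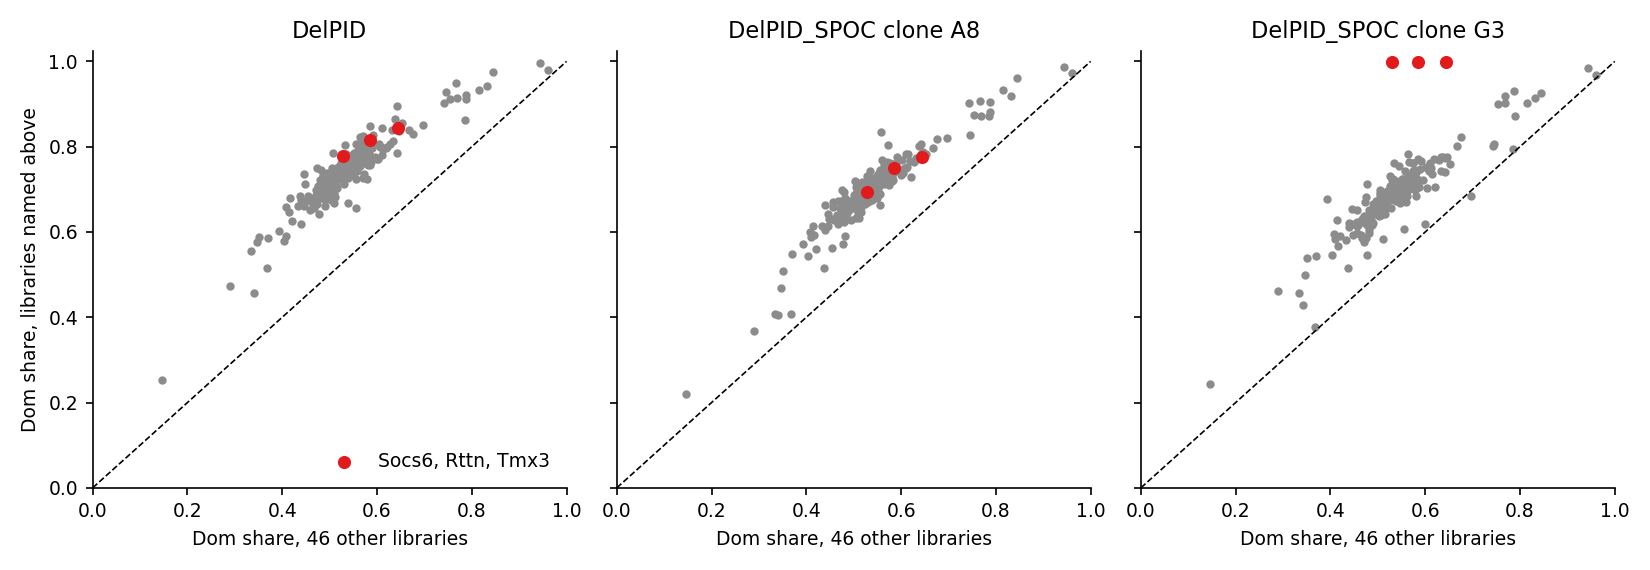
Dom share of each of the 259 members with 10 allelic fragments in every library, pooled over the 46 other libraries (horizontal) against pooled over DelPID, clone A8 or clone G3 (vertical), with the line of equality. Nearly all points lie above the line in each panel, and in clone G3 Socs6, Rttn and Tmx3 (red) lie at 0.997 to 0.999.

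The median size of the shift was similar across sets of members grouped by RNA per gene length, gene length or Dom share, though single members varied. Median log2 odds differences between deletion lines and all others were 1.11, 1.09 and 1.07 in the lowest, middle and highest of 3 equal sets of members by fragments per gene length, 1.09, 1.10 and 1.07 by gene length, and 1.05, 1.11 and 1.11 by Dom share in the other lines. Along the chromosome (gene starts on mm10, as the count tables give them) the Dom share was raised in each of the 9 bins of 10 Mb with at least 5 members, by 0.160 to 0.186, and in none of them did the deletion-line libraries overlap the others. Each of these bins holds between 20 and 70 members.

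**Figure D4:**
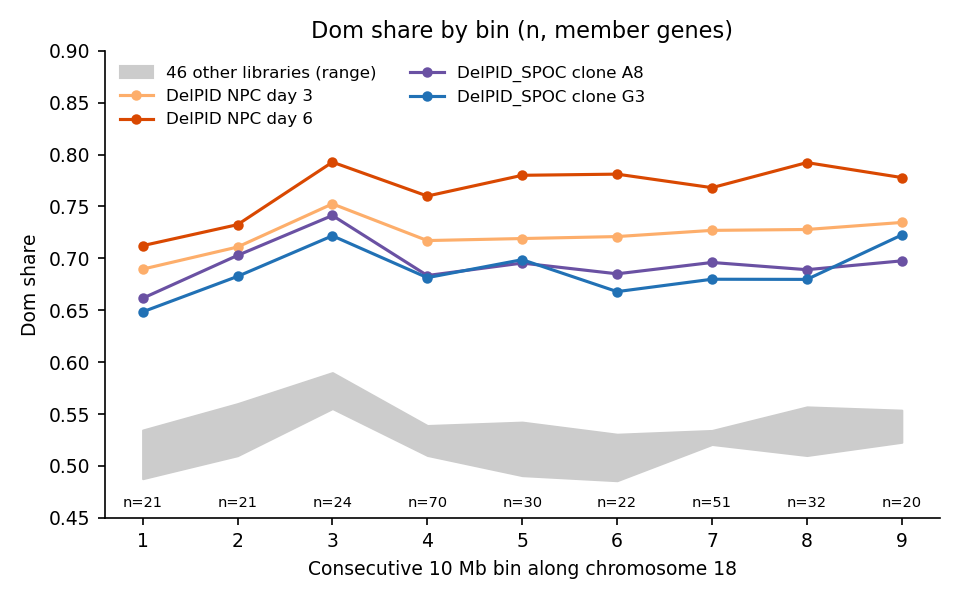
Dom share summed over members in 10 Mb bins along chromosome 18, by line, day and clone; each point is the mean over the libraries of a line and day or of a clone, the range of the 46 other libraries is shaded, and n is the number of members. The deletion lines lie above the shaded range in all 9 bins, those with at least 5 members.

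The genes with the most allelic fragments show the pattern in single libraries. Pias2, a SUMO ligase, had Dom shares of 0.483, 0.493, 0.487 and 0.498 in WT and of 0.697, 0.662, 0.754 and 0.732 in DelPID, 0.633 to 0.642 in clone A8 and 0.606 to 0.635 in clone G3, with 0.426 to 0.469 in SPOC. Its total level was 905, 881, 649 and 858 CPM in WT and 1376, 1432, 1139 and 1339 in DelPID. Neither quantity overlapped between these lines. Commd10 followed suit, with Dom shares of 0.561 to 0.600 in WT and 0.724 to 0.794 in DelPID and levels of 256 to 410 and 468 to 626 CPM. Against all other lines, the log2 odds differences (edgeR) were 1.13 (SE 0.024, adjusted p = 1.67e-31) for the zinc finger gene Zfp407, 1.06 for Pias2, 1.17 for Fhod3, a formin that builds actin filaments, 0.87 for Zfp532 and 1.06 for Commd10. Their total levels differed by 0.29, 0.88, 0.97, 0.16 and 0.81 on the log2 scale, and that of Zfp532 alone did not pass (adjusted p = 0.286). The level of Zfp407 no longer passed in limma-voom when libraries of a line or clone were treated as correlated (adjusted p = 0.0996).

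Grouped by role, the members followed the chromosome as a whole, so the counts of the lists below are read against those of all members: 288 of 288 tested were higher in Dom share and 253 of 292 in level in the deletion lines against all others, and 271 of 288 and 105 of 292 in DelPID against WT (8.09% and 4.65% of all genes). The genes of the TGF-beta and SMAD pathway, through which TGF-beta family ligands signal to the nucleus, had a higher Dom share in the deletion lines in 5 of 5 members. Smad2, a receptor-activated SMAD, had Dom shares of 0.552, 0.532, 0.525 and 0.527 in WT and 0.699, 0.741, 0.799 and 0.786 in DelPID, which did not overlap. The log2 odds difference of Smad2 against all others was 1.09, and its total level rose by 0.47. Smad4, the SMAD that partners with it, differed by 1.12 and 0.40 in the same quantities, the inhibitory Smad7 by 1.27 and 0.66, and Ldlrad4, an inhibitor of SMAD phosphorylation, by 0.95 and 0.69. Bambi, a decoy receptor, differed by 0.94 and 0.34. Against WT, DelPID had a higher share in 4 of the 5, Bambi missing the threshold (0.94, adjusted p = 0.0510), and the total level in 1 of the 5, Smad2. With limma the share of Bambi also passed there (adjusted p = 0.00479). The levels of Smad7 and Bambi against all others were lost in limma-voom with correlated libraries (adjusted p = 0.0768 and 0.109), and that of Bambi also without DelPID day 3 replicate 2 (0.087) or DelPID_SPOC day 0 replicate 1 (0.0567).

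Chromatin and transcription genes had a higher share and a higher total level in the deletion lines in 14 of 14. Setbp1, a SET-binding protein, differed by 1.06 in log2 odds and 0.66 in log2 level, Zeb1, a zinc finger repressor, by 0.97 and 0.97, the basic helix-loop-helix factor Tcf4 by 1.06 and 0.36, and Ss18, a subunit of the BAF remodelling complex, by 1.11 and 0.80. Ss18 was among the few genes whose level did not overlap either, at 276 to 368 CPM in the deletion lines and 134 to 267 in the others. The level of Tcf4 was lost with correlated libraries (limma-voom, adjusted p = 0.0572), and without DelPID_SPOC replicate 2 of day 0 (0.0991) or of day 1 (0.0804). Between DelPID and WT, 14 of the 14 rose in share and 5 in level. Cell division genes rose in share and level in 11 of 11, among them Apc (1.11 and 0.69), which restrains Wnt signalling and binds microtubules, the centrosome scaffold Cep192 (1.11 and 0.64) and Rbbp8 (1.03 and 0.73), which starts DNA end resection. The level of 8 of these 11 rose in DelPID against WT.

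Translation genes rose in share in 7 of 7 and in level in 5 of 7. Lars, the cytosolic leucyl-tRNA synthetase, had a log2 odds difference of 1.07 and a level difference of 0.16 (adjusted p = 0.178), while the release factor Etf1 (1.08 and 0.46) and the kinase Riok3 (1.02 and 0.55) changed in both. Mitochondrial and metabolic genes rose in both in 9 of 9, among them the chaperone Hspa9 (1.02 and 0.51), the protease subunit Afg3l2 (1.02 and 0.55) and Aldh7a1 (1.18 and 0.38), an aldehyde dehydrogenase of lysine breakdown. Adhesion and neural genes rose in both in 9 of 9, among them the cadherin-binding Ctnna1 (1.14 and 0.37) and the Notch ligand regulator Mib1 (1.01 and 0.61). In DelPID against WT the level rose in 3 of 7, 5 of 9 and 3 of 9 members of these lists, beside 105 of 292 members in all.

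Fbxo15, an F-box gene of pluripotent cells, had Dom shares of 0.621, 0.596, 0.626 and 0.598 in WT and 0.735, 0.745, 0.729 and 0.786 in DelPID. Its level was 251, 298, 133 and 150 CPM in WT and 533, 532, 404 and 470 in DelPID, a log2 difference of 1.29 (SE 0.18, edgeR adjusted p = 1.33e-05). Of the 4 pluripotency markers, 0 passed the test in DelPID against WT. Their summed level was 428, 403, 258 and 224 CPM in WT and 466, 621, 275 and 379 in DelPID. In the deletion lines against all others 2 of the 4 rose, Nanog and Klf2 (0.78 and 0.60), and 0 fell, beside 16.4% of all genes higher. Their part in the level of Fbxo15 was not tested. The same applies to neural genes, since Vim and Pax6 of the neural precursor markers rose by 0.70 and 0.94 in that comparison.

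Total levels rose in fewer members than Dom shares. In DelPID against WT, edgeR's test called 105 of 292 members higher and 1 lower (4.65% and 2.9% of the 16227 genes tested), with a median log2 difference of 0.37 against -0.02 off chromosome 18. This count depended on the fit, as 40 members were called higher with only WT and DelPID in the fit, 59 without DelPID day 6 replicate 2, and 21 with limma-voom when libraries of a line or clone were treated as correlated. In DelPID_SPOC against SPOC 214 were higher and 2 lower (13.8% and 11.9% of all genes), with a median of 0.49. In the deletion lines against all others 253 were higher and 2 lower (16.4% and 14.9%), with a median of 0.52, a 1.43-fold level, and 283 had a positive difference. The libraries overlapped for most of them: 10 of 292 members had a higher CPM in all 12 deletion-line libraries than in any other, and 0 a lower one (0.205% and 0.0186% of all genes). These were Thoc1, Usp14, Ss18, Trappc8, Zfp397, Iws1, Brd8, Snx2, Prrc1 and Lman1. Across the 288 members with both tests, the log2 odds and the log2 level difference were unrelated (Pearson r = -0.00286, Spearman rho = -0.0237), over genes measured in the same libraries.

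**Figure D5:**
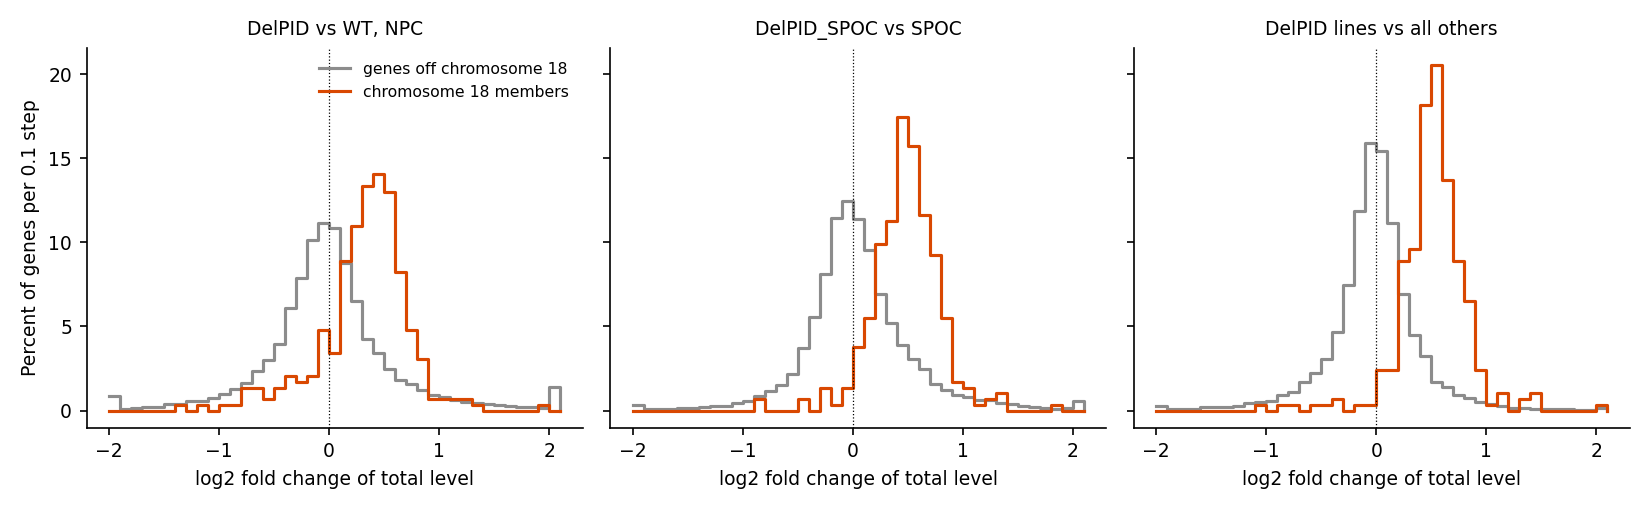
Distribution of log2 total level differences of the 292 members and of all genes off chromosome 18 in DelPID against WT, DelPID_SPOC against SPOC and deletion lines against all others, as percent of genes per 0.1 step; the outermost steps pool the values beyond the axis. The members centre on 0.37, 0.49 and 0.52, and the other genes near 0.

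The level changes named here are the largest among members that passed the test, did not overlap between the groups on any matched day and had at least 5 CPM, and larger ones outside these limits are left out. Prrc1, a coiled-coil gene, had 27.5, 40.3, 27.9 and 40.6 CPM in WT and 79.0, 83.7, 57.6 and 62.3 in DelPID, 67.8 to 88.4 in clone A8 and 76.6 to 95 in clone G3, and its difference from all others was 1.13 (SE 0.085, edgeR adjusted p = 1.00e-12). Gnal, which overlaps Chmp1b in the annotation, Zeb1, Mppe1 and 4930503L19Rik followed within these limits with 0.99, 0.97, 0.84 and 0.83. Arl14epl rose most in both parental contrasts, by 1.99 in DelPID and 1.85 in DelPID_SPOC, followed within these limits in DelPID by Pura (1.32), Fbxo15 and the testis proteasome subunit Psma8 (1.14), and in DelPID_SPOC by the growth factor Fgf1 (1.39), the N-cadherin gene Cdh2 (1.36), Prrc1 (1.30) and Spire1 (1.16). The DelPID calls of Pura and Psma8 were lost with correlated libraries (limma-voom, adjusted p = 0.178 and 0.0854) and without DelPID day 6 replicate 2 (0.0511 and 0.0767), and that of Psma8 also without WT day 3 replicate 2 (0.0512) or WT day 6 replicate 1 (0.0583). Psma8 and Fgf1 were nearly Dom-only in every line, with median Dom shares of 0.963 and 0.952 in the other libraries.

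Few members fell, and their Dom shares still rose. Slc23a1, a vitamin C transporter, had 48.4, 27.7, 30.6 and 16.9 CPM in WT and 21.8, 10.5, 12.6 and 6.88 in DelPID, a log2 difference of -1.35 (SE 0.35, edgeR adjusted p = 0.0129, but 0.0584 with only these lines in the fit), and fell by 0.90 against all others. The call was also lost without WT day 3 replicate 1 (0.0593), WT day 6 replicate 1 (0.0784), DelPID day 3 replicate 2 (0.0783) or DelPID day 6 replicate 2 (0.13), and with correlated libraries in limma-voom (0.171). Its values overlap between these lines. Its Dom share was 0.271 to 0.340 in WT and 0.397 to 0.667 in DelPID. The small nucleolar RNA host gene Snhg4 fell by 0.86 in DelPID_SPOC against SPOC and by 0.59 against all others, where its log2 odds were 1.08 higher. The non-coding 2410004N09Rik fell by 0.81 in DelPID_SPOC against SPOC (adjusted p = 0.0392) and did not pass against all others (-0.45, adjusted p = 0.111). The first call was lost in 10 of 18 fits with 1 library left out (adjusted p of 0.0592 to 0.132), and that of Snhg4 against all others with correlated libraries (limma-voom, adjusted p = 0.0632).

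The share changes named here are the largest among members that passed the test, did not overlap on any matched day and had at least 50 allelic fragments per group. In DelPID against WT these were Fgf1 (log2 odds 3.48), Hbegf (3.01), Gm5820 (2.77), Dpysl3 (2.46) and Myo5b (2.08). Large odds here can rest on few Cast fragments. In the 4 DelPID libraries Fgf1 had 1, 1, 0 and 4 of them and Gm5820 1, 3, 0 and 5. The Dom share of Fgf1 was already 0.895 to 0.987 in WT. Hbegf, an EGF family ligand, had Dom shares of 0.744, 0.500, 0.508 and 0.667 in WT and 0.889, 0.937, 1.00 and 0.916 in DelPID, at 3.45 to 7.04 CPM. The 1.00 came from 5 allelic fragments. Against SPOC, DelPID_SPOC differed most, within the same limits, in Rttn (2.91), Socs6 (2.42), Tmx3 (2.38), Mppe1 (1.49) and Hbegf (1.47). Rttn, Socs6 and Tmx3 led the comparison with all others within these limits, at 2.68, 2.31 and 2.14, ahead of Dpysl3 (1.76) and Hbegf (1.75), but the clones differed widely in them. With only SPOC and DelPID_SPOC in the fit, Rttn had an adjusted p of 0.0612 (edgeR). Against SPOC the calls of Rttn, Socs6 and Tmx3 were each lost in 14 of 18 such fits with 1 library left out, with adjusted p of 0.078 to 0.114, 0.0539 to 0.0845 and 0.0502 to 0.0799. The call of Fgf1 against WT was lost in limma when libraries of a line or clone were treated as correlated (adjusted p = 0.108).

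Clones A8 and G3 had nearly the same Dom share over chromosome 18, but differed at its distal end. Beyond a stretch of 1414 kb after Fbxo15 in which the tables list no gene lie Socs6, Rttn, Dok6 and Tmx3. There clone G3 had 4193, 3052, 3043 and 2095 Dom and 12, 6, 9 and 4 Cast fragments on days 0, 1, 3 and 6, a Dom share of 0.997 to 0.998. The same 4 genes had a Dom share of 0.714 to 0.727 in clone A8, 0.752 to 0.829 in DelPID and 0.546 to 0.598 in the other lines. The 288 members before the stretch had 0.682 to 0.685 in clone G3 and 0.684 to 0.704 in clone A8. This grouping was chosen after the values were seen. The part of the tetraploidy of clone G, taken to be G3, in the differences between the clones was not tested.

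Cast RNA of the 4 genes amounted to 0.347 ± 0.084 CPM in clone G3 (SD, n = 4), 59.1 ± 4.12 in clone A8 (SD, n = 4) and 64.3 ± 9.11 in the other lines (SD, n = 46). Dom RNA was 143 ± 2.63, 153 ± 9.48 and 83.5 ± 12.5 CPM in the same order, so it lay above that of the other lines in both clones. Total RNA was 338 ± 13.7 CPM in clone G3, 509 ± 40.2 in A8 and 361 ± 52.4 in the others. Of the genes there that were not members, Neto1 and Cbln2 had 53 Dom and 0 Cast fragments in clone G3 together, and 266 and 192 in the others. Only Psma8 (0.968) and Fgf1 (0.984) of the 256 earlier members with enough fragments had a Dom share over 0.95 in clone G3, and both were near it in all lines.

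Rttn, a centriole gene, had Dom shares of 0.691, 0.705, 0.690 and 0.693 in clone A8 and 0.997, 0.998, 0.997 and 0.999 in clone G3, with 313, 318, 297 and 285 CPM in A8 and 212, 198, 210 and 205 in G3. Neither overlapped. Socs6, a suppressor of cytokine signalling, had 0.730 to 0.765 and 0.997 to 1.00, and the disulfide isomerase gene Tmx3 0.760 to 0.790 and 0.998 to 1.00. In the fit of the 8 DelPID_SPOC libraries with a term per day, in which 4 libraries of 1 clone count as replicates, the log2 odds were higher in G3 by 7.51 for Rttn (SE 0.11, edgeR adjusted p = 8.02e-22), 7.32 for Tmx3, 7.29 for Socs6 and 4.23 for Dok6, an adaptor gene of few fragments whose adjusted p was 0.112 with limma. Total levels were lower by 0.55, 0.65 and 0.65 in log2 for Rttn, Tmx3 and Socs6 (adjusted p = 0.00488, 0.00315 and 0.00225), and Dok6 differed by 0.13 (adjusted p = 0.828). On mm10 Socs6 lies at chr18:88867879-88894207, Rttn at chr18:88971789-89131014, Dok6 at chr18:89301134-89769136 and Tmx3 at chr18:90510153-90543267.

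In the same fit 13 members had a higher Dom share in G3 and 25 a lower one (7.74% and 4.25% of all genes), or 5 and 5 with limma on the log2 odds, and total levels were higher for 38 and lower for 17 (8.91% and 6.49%), or 23 and 6 without day 0 or without day 1. Cell type markers moved as well: 3 of 4 tested feeder fibroblast markers were higher in G3 and 0 lower, their summed level (6 markers) being 4.53 to 5.35 CPM in A8 and 7.63 to 16.0 in G3, while 1 of 4 pluripotency markers rose and 1 fell, and 1 of 3 tested neural precursor markers rose and 1 fell. Their part in the level differences was not tested. The median member differed by -0.07 in log2 odds and by -0.02 in log2 level. Lama3, a laminin chain, was the next on the higher side after the distal genes (0.85). The desmosomal cadherin Dsg2 was lowest, with Dom shares of 0.888 to 0.925 in A8 and 0.782 to 0.810 in G3 (log2 odds -1.22), followed by Ccbe1 (-0.94). Total levels differed most for the zinc finger gene Zfp521, at 41.2, 44.3, 31.1 and 76.1 CPM in A8 and 234, 193, 147 and 288 in G3 (2.20), then Stk32a (2.06), Htr4 (1.79), Prr16 (1.77) and 4833403I15Rik (1.74).

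Between days 3 and 6, the Dom share of chromosome 18 rose further in DelPID. The change was from 0.719 and 0.725 to 0.770 and 0.759 in DelPID, from 0.529 and 0.537 to 0.530 and 0.533 in WT, from 0.695 to 0.704 in clone A8 and from 0.684 to 0.686 in clone G3. It came with a fall in Cast RNA: relative to day 3, 217 of 259 members had less Cast RNA on day 6 in DelPID, with a median log2 ratio of -0.38, while Dom RNA had a median of -0.09. Cast RNA was also lower on day 6 for 189 of 259 members in clone A8 (median -0.13) and 160 in clone G3 (-0.08), where Dom RNA had medians of -0.08 and -0.10. In WT 128 of 259 members had less Cast RNA, with a median of 0.00. Among bins the rise was 0.0226 and 0.0216 in the bins of the first 20 Mb, and 0.0402 to 0.0645 in the 7 others with at least 5 members. Per gene, the change in DelPID minus that in WT was positive in log2 odds for 245 of 288 members, with a median of 0.30, but edgeR called 2, Smad2 (0.62, SE 0.13, adjusted p = 0.0237) and Ctnna1 (0.53, SE 0.11, adjusted p = 0.0299), both of which were lost with only WT and DelPID in the fit (adjusted p = 0.343 and 0.243) and in all 8 such fits with 1 library left out, and 0 in the other direction (0.141% and 0% of all genes), with 74 members at an unadjusted p under 0.05. This contrast was added after the shares were seen. No total level passed in it, with 12 members at an unadjusted p under 0.05 (edgeR, 0% of all genes called). The counts of members with less Cast RNA, with a positive difference or at an unadjusted p are given without the rate among all genes. These counts therefore do not set chromosome 18 apart. Over the other autosomes the Dom share of DelPID was 0.478 and 0.492 on day 3 and 0.451 and 0.493 on day 6. The shallow replicate 1 libraries of DelPID enter every value here.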

How the data were processed

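Libraries of chromatin-associated RNA were sequenced as paired ends. The authors aligned reads with STAR (version 2.4.2a, per their processing notes) to mm10 with strain-specific bases masked, split them by parental genome, and deposited raw fragment counts per gene from featureCounts: all fragments, Cast fragments and Dom fragments. No normalization was applied to the deposited counts.

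Dom shares and CPM were computed from these counts, the latter with TMM library sizes. Total counts (after filterByExpr) and Dom and Cast counts (genes with at least 10 allelic fragments in 80% of libraries, a term per library and a Dom term per group, 1 common dispersion) were tested with edgeR 4.0.16 (glmQLFit and glmQLFTest, R 4.3.3) in 1 fit over all 58 libraries and 28 groups, 26 of them of 2 libraries and 2 of 3, with Benjamini-Hochberg adjustment at 0.05. The contrasts averaged days. Group means over days 0, 1, 3 and 6 were matched by day. limma 3.58.1 and DESeq2 1.42.0 served as alternatives. The edgeR tests were checked on simulated data. The allele test was run on 288 of the 292 members, those with enough allelic fragments. Mir466p and Gnal overlap other listed genes on their strand.

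Genes named in the text were members of lists of roles, with the most allelic fragments as examples, up to 5 members per comparison with the largest called and non-overlapping change (at least 5 CPM, or 50 allelic fragments per group), up to 5 called against the median member, the 5 with most allelic fragments, and those with a Dom share over 0.9 or under 0.1 in the median library. The distal genes and those named as rising in all libraries were named after their values were seen. The members and lists were chosen with earlier results of these data known, so their counts are descriptions. WT and DelPID replicates share numbers in the labels, which was checked and is described with the other settings.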

Additional observations from a re-analysis of the deposited data

Results flagged for a closer look

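Clones A8 and G3 of DelPID_SPOC differed in the Dom share of 38 members of chromosome 18 by edgeR's test of the difference between the clones. The same test called 7.74% of all genes higher and 4.25% lower, so the count alone does not set chromosome 18 apart. The log2 odds were 7.51 higher in G3 for Rttn, 7.32 for Tmx3, 7.29 for Socs6 and 4.23 for Dok6, the 4 distal members, and 0.85 higher for Lama3. They were lower for Dsg2 (-1.22) and Ccbe1 (-0.94). The 4 libraries of a clone are not separate clones, so these tests compare 2 clones over days.

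The change of the Dom share from day 3 to day 6 differed between DelPID and WT for 2 members by the same kind of test, Smad2 (0.62) and Ctnna1 (0.53). Both calls were lost with only WT and DelPID in the fit. None of the 20 sets of 4 to 10 libraries of a line or clone that were screened for Dom share, percent of fragments, Dom level and Cast level held a library standing far from the rest. Days were mixed in these sets, and PCGF35 and PCGF35_SPOC were not screened, so the screen could miss a library that stood apart.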

How the results depend on the processing

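The Dom share of chromosome 18 in the deletion lines against all others kept its size under every alternative: 0.173 as reported, 0.176 as a median over members, 0.173 without the protocadherin member, and 0.172 to 0.174 without each deletion-line library in turn. The total level difference of 0.53 was 0.46 with plain totals, and 0.51 to 0.54 without each deletion-line library. In 5 Mb bins the rise of the share was at least 0.159.

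Members called in DelPID against WT numbered 242 to 276 for Dom share without each library in turn, and for total level, 106 as reported, they numbered 40 with only the compared groups, 21 with line or clone as a correlated block, and 60 to 99 without each library in turn, 60 being without DelPID day 6 replicate 2. With the replicate number as a block they numbered 34 for total level and 274 for Dom share. Libraries with the same number deviated from their group means with correlations of -0.07 on day 3 and -0.06 on day 6. No pairing by number was seen, but groups of 2 libraries cannot exclude a shared experiment. DelPID_SPOC against SPOC gave 200 to 218 for total level and 264 to 275 for Dom share without each library, and the deletion lines against all others 239 to 256 and 285 to 288. Where a library left out leaves a group with 1, that library is assumed to vary like the other groups. For Dom share in both parental comparisons these fits held only the compared groups, as a setting chosen after seeing the data, and leaving out WT or SPOC libraries in the fit on all libraries was not run.

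Clone G3 against A8 gave 29 to 48 members for total level and 27 to 30 for Dom share without each day in turn, 29 without day 0 or day 1, and 10 for Dom share with limma. The day 6 change relative to WT gave 9 members with limma, 0 with only the compared groups and 0 to 3 without each library. Of 1619 recomputed values of single genes, 1506 kept their direction and side of the threshold, 98 lost it, 12 gained it and 3 changed sign: Psma8 in Dom share against WT (-2.15 to 0.0264 without each library, the latter without WT day 6 replicate 2), and Dok6 in total level between the clones (-0.17 to 0.49 without each day, -0.17 without day 0 and -0.000772 without day 1), none of them called. The causes were not tested. Depth limits single members in DelPID day 6 replicate 1, at 2292261 fragments.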
